A study of Mus musculus with 8 samples.

Results

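The 55 genes described here encode ribosome biogenesis factors, the proteins that make and process ribosomal RNA and build the subunits but are not themselves part of the finished ribosome. They were given by symbol. Each was measured by a probe set annotated with that symbol alone, and where a gene had several, the probe set with the highest mean over the arrays was used. This gave values for 54 of the 55 genes, among 19938 genes in all. Noc2l had no such probe set and was not analysed here.

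The cells were mouse 3134 cells, a mammary line that goes back to C127 cells and to a mammary tumour of the RIII strain. All groups carry 2 stably integrated constructs: A-fos, a dominant negative form that binds AP-1 transcription factors so that they do not bind DNA, and tTA, the tetracycline-controlled transactivator. There were 8 arrays, 2 in each of 4 groups: plus tetracycline with dexamethasone for 4 h, plus tetracycline at 0 h (untreated), no tetracycline with dexamethasone for 4 h, and no tetracycline at 0 h. Dexamethasone, a synthetic glucocorticoid, was given at 100 nM after 48 h in charcoal-treated serum. The group names follow the titles and the matching characteristic. The treatment protocols state the opposite tetracycline state (with or without 1 ug/ml) for all 8 samples, so the arms are called plus-titled and no-titled, and no difference between them is tied to presence or absence of A-fos. Whether the line is 1 clone is not said in the labels, and nothing says that the 2 arrays of a group came from separate cultures, so the spread behind the p-values is that between these samples and could be technical.

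Ribosomes are assembled in the nucleolus. RNA polymerase I transcribes a long precursor RNA, small nucleolar ribonucleoproteins (snoRNPs) modify it, and a large complex called the small-subunit (SSU) processome folds and cuts the part that becomes 18S rRNA. The small and large subunits, 40S and 60S, then mature along separate paths and leave the nucleus, and MYC is a well-known activator of many genes of this programme in growing cells.

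Array medians ran from 5.36 to 5.47, and the 2 arrays of a group correlated with r from 0.9932 to 0.9956 over all genes. The pair of untreated plus-titled arrays was the loosest, with 24 genes more than 2-fold apart, and in it 47 of the 54 genes (87%) were higher in replicate 1, where the share over all genes was 45.6%. Replicate 1 was also the higher for most of the 54 genes in the other pairs, by smaller margins. It was higher for 43 (79.6%, all genes 53.6%) in the plus-titled 4 h pair, with a median difference of 0.18, where that of the untreated plus-titled pair was 0.25. In the no-titled arm it was higher for 35 (64.8%, all genes 48.3%) at 4 h, with a median of 0.05, and for 41 (75.9%, all genes 50.3%) at 0 h, with a median of 0.09.

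Most of the 54 ribosome biogenesis genes had lower signals in the plus-titled arm than in the no-titled arm, both with dexamethasone and without it. Values are log2 signals as deposited, and a difference is plus-titled minus no-titled. At 4 h of dexamethasone, 38 of the 54 genes were called lower and 0 higher, where a call is an adjusted p under 0.05 in limma with Benjamini-Hochberg adjustment over all genes. Of all genes, 4.32% were called lower and 5.29% higher in that comparison. At 0 h, 26 were called lower and 0 higher, against 3.18% of all genes lower and 6.2% higher. At 0 h, 8 genes were called lower without the first or without the second untreated no-titled array, and 10 without the second untreated plus-titled array. At 4 h, 19 were called without the first no-titled 4 h array, 19 without the second plus-titled 4 h array and 25 without the second no-titled 4 h array. The calls over all genes became fewer in the same fits, with 0.883% to 1.89% of all genes lower at 0 h and 1.48% to 1.79% at 4 h.

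The median difference over the 54 genes was -0.67 at 4 h and -0.46 at 0 h, where that over all genes was -0.01 and -0.02. Differences ran from -1.35 to 0.20 at 4 h and from -1.16 to 0.09 at 0 h. Below 0 were 53 of the 54 genes at 4 h and 52 at 0 h (all genes, 52.9% and 53.6%). Both plus-titled arrays lay below both no-titled arrays for 52 genes at 4 h (27.2% of all genes) and for 44 genes at 0 h (24.9% of all genes). The opposite separation was seen for 1 gene at 0 h, Rrn3 (25% of all genes at 0 h and 24.4% at 4 h), and the arrays overlapped for the other 9. In bulk RNA, fewer cells making a transcript and less of it per cell cannot be told apart.

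The median deviation of the 54 genes from their own means was -0.24 and -0.46 in the plus-titled 4 h arrays and -0.10 and -0.32 in the plus-titled 0 h arrays. It was 0.34 and 0.30 in the no-titled 4 h arrays and 0.32 and 0.21 in the no-titled 0 h arrays, so all 4 plus-titled arrays lay below all 4 no-titled ones.

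**Figure D1:**
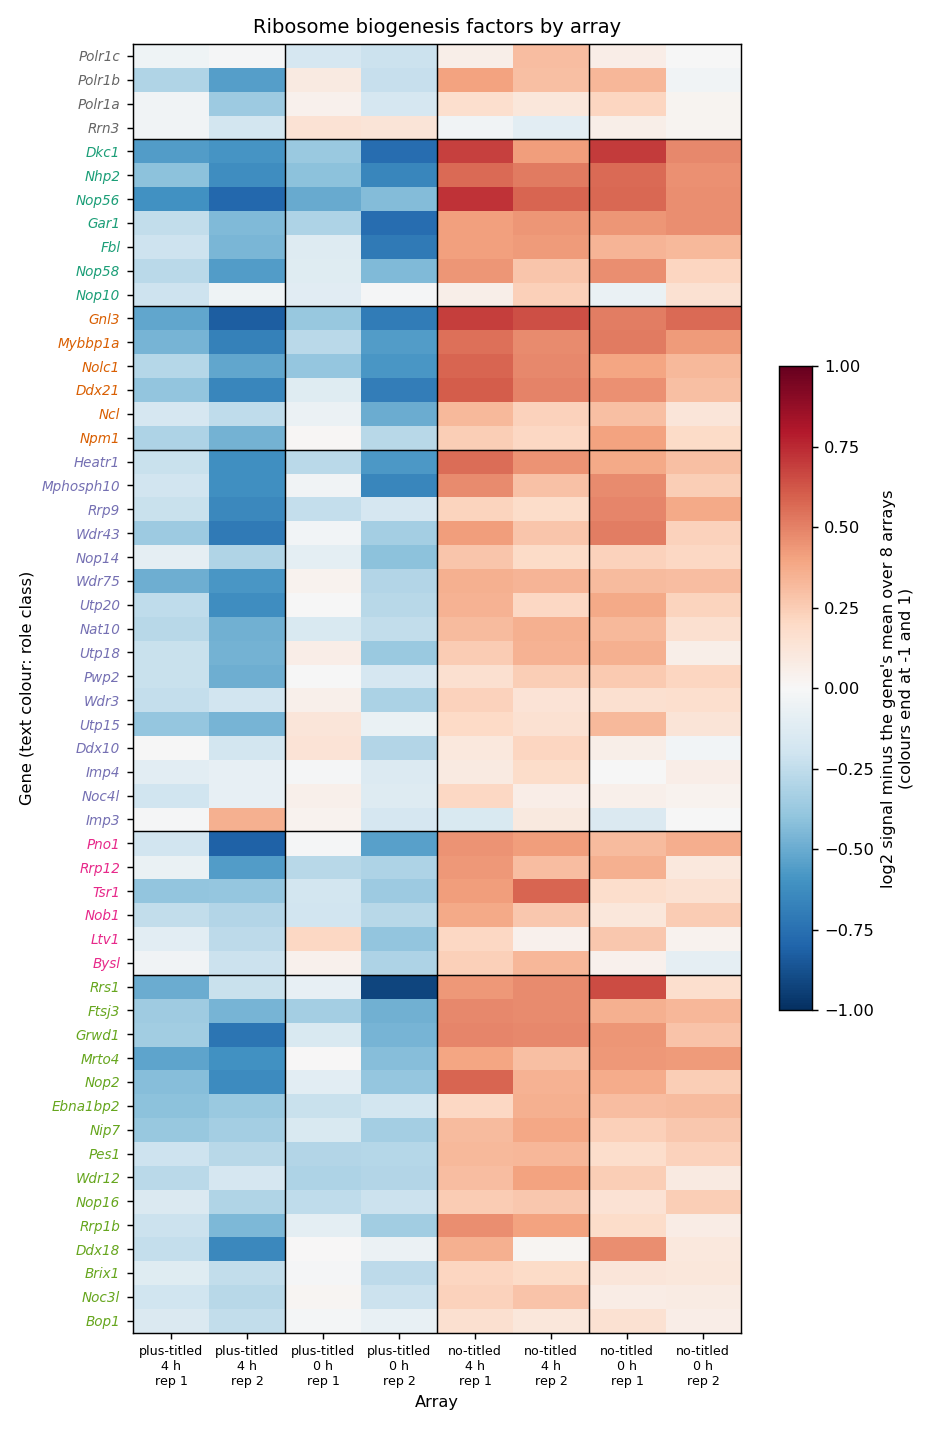
Log2 signal of each of the 54 genes (rows, grouped by role) on each of the 8 arrays (columns), minus that gene's mean over the arrays; blue is below the gene's mean and red above it. The 4 plus-titled arrays on the left are mostly blue and the 4 no-titled arrays on the right mostly red, with the second array of each plus-titled group the bluer one.

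The means compared at 4 h and at 0 h share no array. The calls at both times use the same estimate of each gene's spread, from all 8 arrays, so they are not independent. Lower in both were 24 genes, lower at 4 h alone by the call were 14, lower at 0 h alone were 2 (Nop14 and Rrs1), and 14 were called in neither. Of the genes lower at 4 h, 63.2% were also lower at 0 h, where the share among all genes was 47.6%. Of those lower at 0 h, 92.3% were also lower at 4 h (all genes, 64.7%). Across the 54 genes the differences at the 2 times correlated with r = 0.862, and across all 19938 genes with r = 0.72. Genes are not independent replicates, and all values come from the same 8 arrays. A call at 1 time and not at the other does not show a difference between the times; that takes the interaction test.

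**Figure D2:**
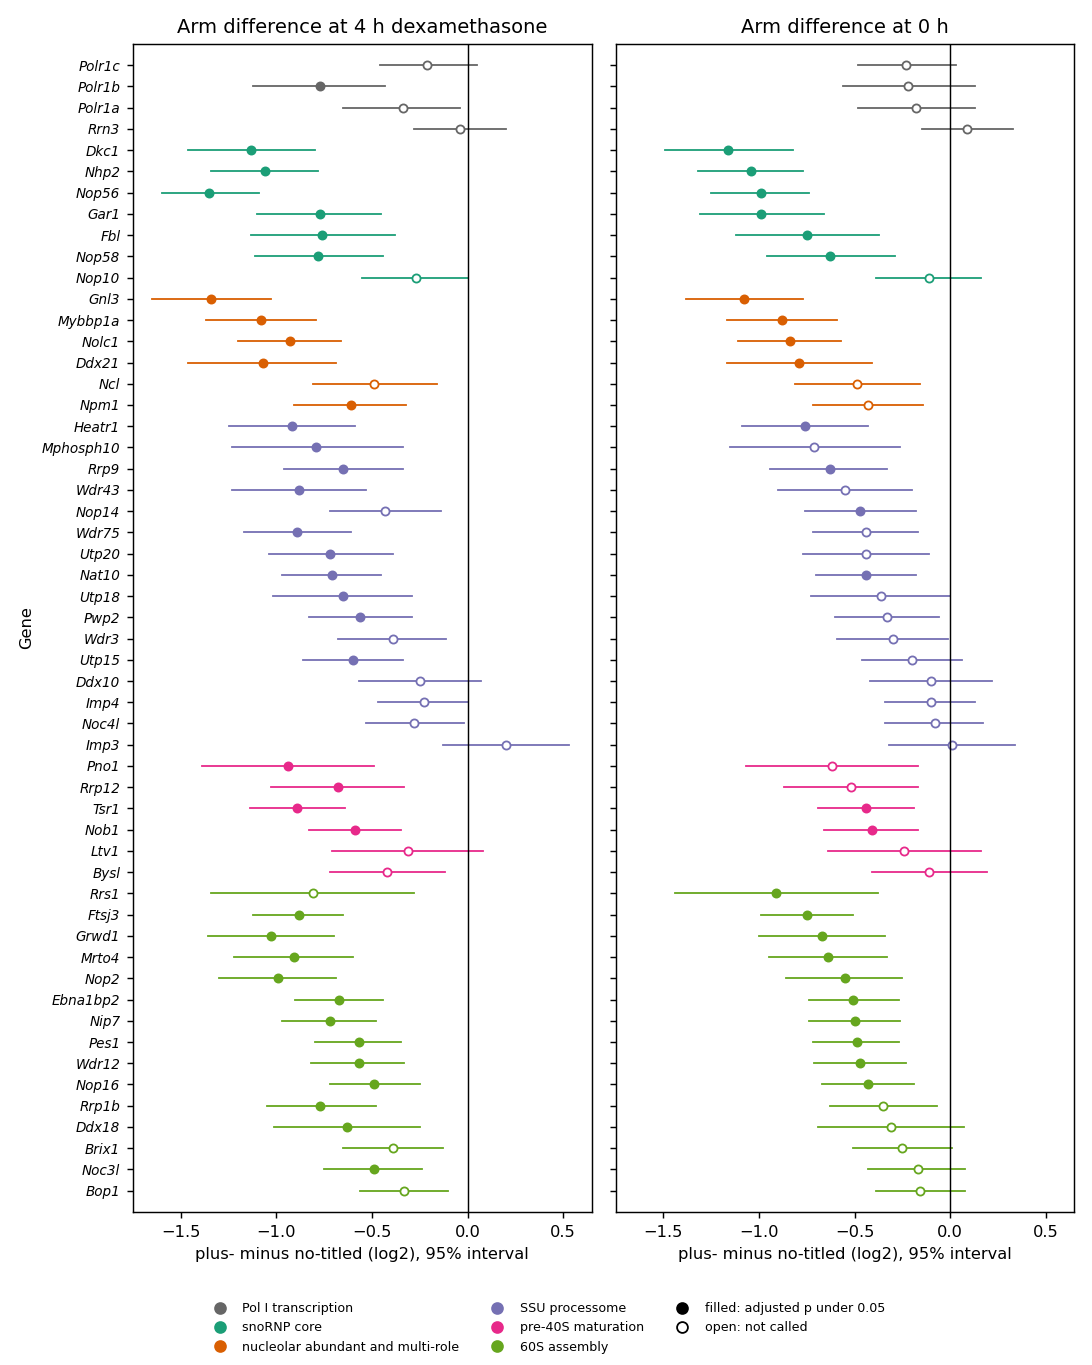
Difference in log2 signal, plus-titled minus no-titled, for each of the 54 genes at 4 h of dexamethasone (left) and at 0 h (right), with 95% intervals from limma; filled points are called at an adjusted p under 0.05. All filled points, 38 at 4 h and 26 at 0 h, lie left of 0.

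Promoter sequence is shown because the genes moved together and because AP-1 and MYC bind known short motifs. RefSeq windows (GRCm38.p6, 250 bases before to 50 after the annotated start) were matched by symbol or gene number for 49 of the 54 genes. CACGTG, the E-box bound by MYC and other factors (the same on both strands), was found in 12 of the 49 windows, or 24.5%, and in 9.5% of the windows of 15614 measured genes. The AP-1 motif TGACTCA, or TGAGTCA when read on the other strand, was in 0 of the 49 windows and in 5.41% of all. Genes with the E-box had a median difference of -0.80 at 4 h and -0.47 at 0 h. Those without it had -0.65 at 4 h and -0.44 at 0 h. A match is a run of letters and not a measured binding site, and a window without one says nothing about the factor. The windows of the 49 genes were set beside all windows without matching for base composition, and the shares were not tested.

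The E-boxes of 8 genes follow, each in capitals with its flanking bases, first for genes called lower at both times and then for genes called at neither. Of the 13 E-boxes found, 8 begin after the start site.
Mybbp1a (chr11:72441357-72441376, plus strand): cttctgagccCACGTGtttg
Grwd1 (chr7:45830740-45830765, minus strand): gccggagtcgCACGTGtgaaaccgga
Nop2 (chr6:125131813-125131838, plus strand): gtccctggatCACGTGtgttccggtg
Pes1 (chr11:3963967-3963992, plus strand): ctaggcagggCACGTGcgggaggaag
Tsr1 (chr11:74898094-74898119, plus strand): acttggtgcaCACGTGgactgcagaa
Imp4 (chr1:34439698-34439723, plus strand): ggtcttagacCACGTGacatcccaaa
Ltv1 (chr10:13193094-13193119, minus strand): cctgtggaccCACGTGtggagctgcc
Rrn3, first (chr16:13780474-13780499, plus strand): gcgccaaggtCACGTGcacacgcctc
Rrn3, second (chr16:13780641-13780666, plus strand): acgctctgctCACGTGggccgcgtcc

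Genes with and without the motif were found at both ends of the range, and no test was made of it. Rrn3, with 2 E-boxes, was called in neither comparison, and Nop56, with none, had the most negative difference at 4 h. These genes were picked after their values were seen. Their windows, shown from 250 bases before the start to 30 after it with E-boxes in capitals, stand beside that of Nop2, which has 1 E-box and was lower at both times.
Nop56 (chr2:130274162-130274441, plus strand): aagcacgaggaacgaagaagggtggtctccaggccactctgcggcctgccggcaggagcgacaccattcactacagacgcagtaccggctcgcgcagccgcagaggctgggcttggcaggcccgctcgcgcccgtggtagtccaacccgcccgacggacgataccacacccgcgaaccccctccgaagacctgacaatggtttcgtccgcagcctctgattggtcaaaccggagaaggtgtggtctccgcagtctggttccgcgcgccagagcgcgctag
Nop2 (chr6:125131633-125131912, plus strand): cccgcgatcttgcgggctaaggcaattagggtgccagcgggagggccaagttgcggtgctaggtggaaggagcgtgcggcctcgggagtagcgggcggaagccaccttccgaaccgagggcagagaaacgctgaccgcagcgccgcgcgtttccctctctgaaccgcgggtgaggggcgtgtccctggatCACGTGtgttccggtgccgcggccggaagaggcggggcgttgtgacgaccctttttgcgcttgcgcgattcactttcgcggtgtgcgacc
Rrn3 (chr16:13780449-13780728, plus strand): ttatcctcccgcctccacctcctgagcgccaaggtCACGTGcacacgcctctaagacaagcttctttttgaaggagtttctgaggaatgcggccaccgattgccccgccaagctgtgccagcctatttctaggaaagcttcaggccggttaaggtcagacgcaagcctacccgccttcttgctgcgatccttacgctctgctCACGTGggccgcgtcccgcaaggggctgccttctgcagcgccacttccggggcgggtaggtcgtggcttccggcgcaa

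The RNA polymerase I group had 4 members, too few for a share of calls to say much. Called lower were 1 at 4 h (25%, all genes 4.32%) and 0 at 0 h (all genes 3.18%). The median differences were -0.28 at 4 h and -0.20 at 0 h, with 4 members below 0 at 4 h and 3 at 0 h. Polr1b, one of the catalytic subunits, had log2 signals of 6.82 and 6.57 in the plus-titled 4 h arrays, against 7.52 and 7.42 in the no-titled 4 h arrays. It was lower by this test at 4 h (-0.77 ± 0.16 SE, adjusted p = 0.0111), and at 0 h its difference was -0.22 (adjusted p = 0.465). Polr1a, the largest subunit, differed by -0.34 at 4 h and by -0.18 at 0 h, neither called.

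Polr1c, a subunit shared with RNA polymerase III, had the smallest p of the group at 0 h. Its untreated signals were 8.15 and 8.11 in the plus-titled arm, against 8.39 and 8.32 in the no-titled arm, which did not overlap. The difference of -0.23 did not pass the test (adjusted p = 0.282), nor did that of -0.21 at 4 h. Rrn3, the factor that brings the polymerase to rDNA promoters, had 9.34 and 9.32 in the untreated plus-titled arrays, against 9.25 and 9.22 in the untreated no-titled arrays. Its difference was 0.09 at 0 h (95% interval -0.15 to 0.33) and -0.04 at 4 h.

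The snoRNP core proteins had the most negative median at 0 h of the 6 role groups. Of the 7, 6 were lower at 4 h and 6 at 0 h (all genes, 4.32% and 3.18%), and the medians were -0.78 and -0.99. These proteins form 2 kinds of particle: Nop56, Nop58 and the methyltransferase fibrillarin (Fbl) carry box C/D RNAs, which guide ribose methylation, and the pseudouridine synthase Dkc1 with Nhp2, Gar1 and Nop10 carries box H/ACA RNAs, which guide pseudouridylation.

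Nop56 had 9.15 and 8.97 in the plus-titled 4 h arrays, against 10.48 and 10.34 in the no-titled 4 h arrays. At 0 h it had 9.25 and 9.32 in the plus-titled arm, against 10.33 and 10.22 in the no-titled arm. The groups were far apart compared with the spread of each pair, and the gene was 2.54-fold lower at 4 h (-1.35 ± 0.12 SE, adjusted p = 0.000137) and 1.99-fold lower at 0 h (-0.99 ± 0.12, adjusted p = 0.000861). Nop58 was lower by 0.78 on the log2 scale at 4 h and by 0.63 at 0 h, and Fbl by 0.76 and 0.75. All 3 box C/D proteins were therefore called at both times.

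Dkc1 had the most negative difference of the 54 genes at 0 h. Its untreated signals were 7.99 and 7.60 in the plus-titled arm, against 9.06 and 8.84 in the no-titled arm, and at 4 h they were 7.80 and 7.77 in the plus-titled arm, against 9.04 and 8.78 in the no-titled arm. All 4 plus-titled arrays lay below all 4 no-titled arrays. The gene was 2.18-fold lower at 4 h (-1.13 ± 0.15, adjusted p = 0.00142) and 2.23-fold lower at 0 h (-1.16 ± 0.15, adjusted p = 0.00141).

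Nhp2 repeated closely at the 2 times, with 7.61 and 7.40 in the plus-titled arm at 4 h, against 8.59 and 8.54 in the no-titled arm. The untreated values were 7.61 and 7.37 in the plus-titled arm, against 8.59 and 8.48 in the no-titled arm. Its falls of 2.08-fold at 4 h and 2.06-fold at 0 h had adjusted p-values of 0.000772 and 0.000954. Gar1 was lower by 0.77 at 4 h and by 0.99 at 0 h on the log2 scale. Nop10, the smallest protein of the H/ACA particle, was the exception among the 7: its differences of -0.27 at 4 h and -0.11 at 0 h were not called.

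**Figure D3:**
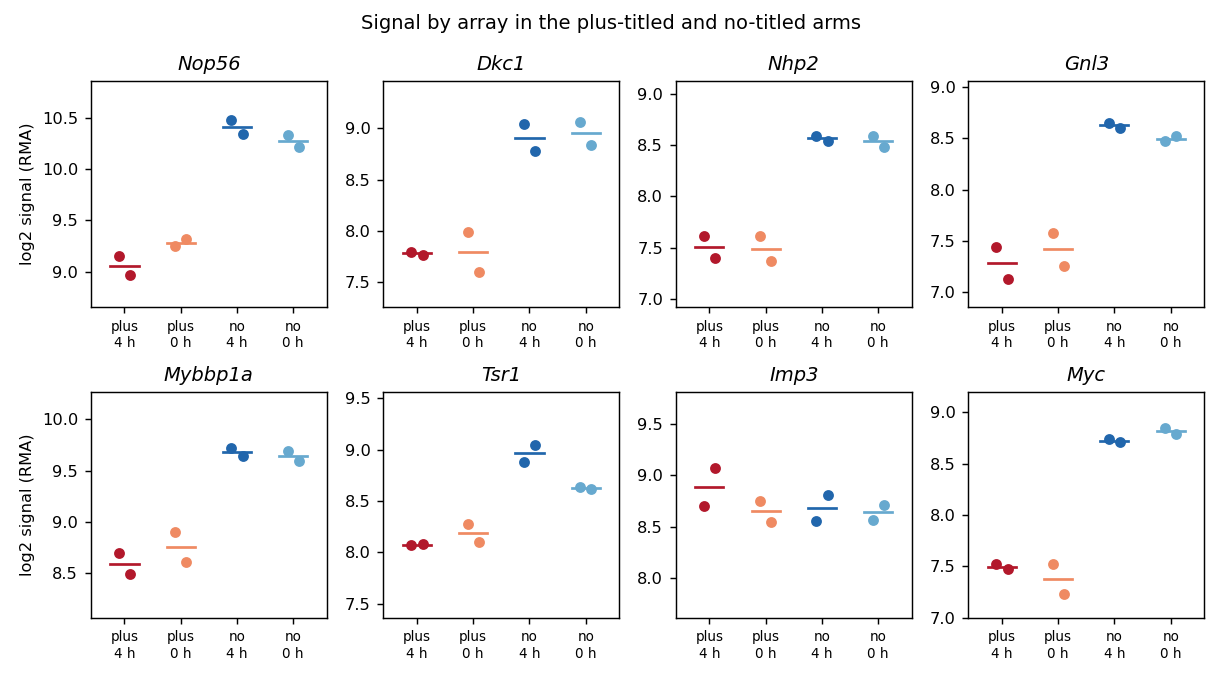
Log2 signal (deposited RMA values) on each array for 7 of the genes and for Myc; each point is an array, the bar is the mean of the pair, and every panel spans 2.2 log2 units so that distances can be compared. Plus-titled arrays stand to the left; they lie below all no-titled arrays for each gene shown except Imp3, where the arms overlap.

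Of the abundant nucleolar proteins with several roles, 5 of 6 were lower at 4 h and 4 at 0 h (all genes, 4.32% and 3.18%). The medians were -1.0 and -0.82. Gnl3 (nucleostemin, a GTP-binding nucleolar protein of dividing cells) had 7.44 and 7.13 in the plus-titled 4 h arrays, against 8.65 and 8.60 in the no-titled ones. It had 7.58 and 7.26 in the untreated plus-titled arrays, against 8.47 and 8.52 in the untreated no-titled ones. The arms did not overlap, and Gnl3 was 2.54-fold lower at 4 h (adjusted p = 0.000424) and 2.11-fold lower at 0 h (adjusted p = 0.00141).

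Mybbp1a, which binds MYB and takes part in rRNA synthesis, had 8.70 and 8.49 in the plus-titled arm at 4 h, against 9.72 and 9.64 in the no-titled arm. Without hormone it had 8.90 and 8.61 in the plus-titled arm, against 9.69 and 9.59 in the no-titled arm. Its falls were 2.12-fold at 4 h and 1.85-fold at 0 h (adjusted p = 0.000906 and 0.00269). Nolc1, a chaperone of snoRNPs, was also lower, with 8.06 and 7.83 in the plus-titled 4 h arrays against 8.93 and 8.83 in the no-titled ones. Its untreated values were 7.96 and 7.77 in the plus-titled arm, against 8.74 and 8.67 in the no-titled arm. These are falls of 1.91-fold at 4 h and 1.79-fold at 0 h (adjusted p = 0.00132 and 0.00242), each larger than the spread within a pair. The helicase Ddx21 was lower by 1.07 at 4 h and by 0.79 at 0 h on the log2 scale.

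The 2 best-known nucleolar proteins had smaller differences. Nucleophosmin (Npm1) was lower at 4 h (-0.61, adjusted p = 0.0154) and at 0 h had -0.43 (adjusted p = 0.0691). Nucleolin (Ncl) was called at neither time, with -0.49 at both (adjusted p = 0.0652 at 4 h and 0.0653 at 0 h). Its untreated signals of 10.86 and 10.42 in the plus-titled arm, against 11.22 and 11.04 in the no-titled arm, did not overlap.

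In the SSU processome, 10 of 16 genes were lower at 4 h and 4 of 16 at 0 h (all genes, 4.32% and 3.18%). The medians were -0.63 and -0.40. Heatr1, a large scaffold protein of the complex, had 7.68 and 7.29 in the plus-titled 4 h arrays, against 8.46 and 8.35 in the no-titled ones. Untreated, it had 7.63 and 7.33 in the plus-titled arm, against 8.28 and 8.20 in the no-titled arm. It was 1.89-fold lower at 4 h and 1.69-fold lower at 0 h (adjusted p = 0.00402 and 0.0111), with no overlap at either time.

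Rrp9, the protein specific to the U3 snoRNP, had 7.34 and 6.92 in the plus-titled 4 h arrays, against 7.79 and 7.75 in the no-titled ones, and 7.33 and 7.40 in the plus-titled arm at 0 h, against 8.05 and 7.94 in the no-titled arm. It was 1.57-fold lower at 4 h and 1.55-fold lower at 0 h (adjusted p = 0.0152 and 0.0181). Nop14 was near the threshold: it had 8.29 and 7.98 in the untreated plus-titled arrays, against 8.62 and 8.60 in the untreated no-titled ones. Its difference was called at 0 h (-0.47, adjusted p = 0.0475) and missed the call at 4 h (-0.43, adjusted p = 0.0709). Nat10, which acetylates 18S rRNA, was lower at both times (-0.71 at 4 h, -0.44 at 0 h).

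The other SSU processome calls came at 4 h. They were the WD-repeat proteins Wdr75 (-0.89), Wdr43 (-0.88), Utp18 (-0.65), Utp15 (-0.60) and Pwp2 (-0.56), and Mphosph10 (-0.79) and the large scaffold protein Utp20 (-0.72). At 0 h these 7 had differences from -0.71 (Mphosph10) to -0.20 (Utp15), none called. Mphosph10 works in a complex with Imp3 and Imp4, and neither partner was called at either time. Imp3 had 8.70 and 9.07 in the plus-titled 4 h arrays, against 8.56 and 8.81 in the no-titled ones. The untreated signals were 8.75 and 8.55 in the plus-titled arm, against 8.57 and 8.71 in the no-titled arm. The arms overlapped at both times, and the differences were 0.20 at 4 h and 0.01 at 0 h (95% interval -0.32 to 0.34). Imp4 had -0.23 at 4 h and -0.10 at 0 h.

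Noc4l, whose yeast counterpart pairs with that of Nop14, also overlapped between the arms at 0 h, with 7.32 and 7.14 in the plus-titled arrays against 7.32 and 7.31 in the no-titled ones. Its difference was -0.28 at 4 h and -0.08 at 0 h, neither called. Wdr3 (-0.39 at 4 h, -0.30 at 0 h) and the helicase Ddx10 (-0.25 and -0.10) were not called at either time.

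Among the 6 late 40S factors, 4 were lower at 4 h and 2 at 0 h (all genes, 4.32% and 3.18%), which are small counts. The medians were -0.63 and -0.43. Tsr1, a protein of cytoplasmic pre-40S particles, had 8.07 and 8.08 in the plus-titled 4 h arrays, against 8.88 and 9.05 in the no-titled ones. At 0 h it had 8.28 and 8.10 in the plus-titled arm, against 8.64 and 8.62 in the no-titled arm. It was 1.85-fold lower at 4 h (adjusted p = 0.00125) and 1.36-fold lower at 0 h (adjusted p = 0.0372).

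Nob1, the nuclease that cuts the 3′ end of 18S rRNA, had 7.83 and 7.79 in the plus-titled 4 h arrays, against 8.46 and 8.35 in the no-titled ones, and 7.89 and 7.80 in the plus-titled arm at 0 h, against 8.19 and 8.33 in the no-titled arm. It was 1.51-fold lower at 4 h and 1.33-fold lower at 0 h (adjusted p = 0.00745 and 0.0394). The 0 h calls of Nob1 and Tsr1 were near the threshold and depended on the setting. Pno1, the partner of Nob1, was lower at 4 h (-0.94, adjusted p = 0.0161) and had -0.62 at 0 h (adjusted p = 0.0904). Rrp12, an export factor of pre-ribosomal particles, was lower at 4 h (-0.68), and the pre-40S proteins Ltv1 and Bysl were called at neither time (-0.31 and -0.42 at 4 h).

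In 60S assembly, 12 of 15 genes were lower at 4 h and 10 of 15 at 0 h (all genes, 4.32% and 3.18%). The medians were -0.67 and -0.49. Rrs1, which in yeast helps to load the 5S ribonucleoprotein, had the most negative difference of the group at 0 h and the widest replicates. Its untreated signals were 7.63 and 6.79 in the plus-titled arm, against 8.36 and 7.88 in the no-titled arm. It was called at 0 h (-0.91 ± 0.24, adjusted p = 0.0394) and not at 4 h (-0.81 ± 0.24, adjusted p = 0.0607). Ftsj3, an rRNA methyltransferase family protein, was tighter, with 8.23 and 8.09 in the untreated plus-titled arrays against 8.92 and 8.90 in the no-titled ones. It was 1.85-fold lower at 4 h and 1.68-fold lower at 0 h (adjusted p = 0.000959 and 0.00232).

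Grwd1, a WD-repeat factor that binds ribosomal protein L3, had 7.19 and 6.81 in the plus-titled 4 h arrays, against 8.03 and 8.02 in the no-titled ones, and 7.39 and 7.08 in the plus-titled arm at 0 h, against 7.98 and 7.83 in the no-titled arm. The arms did not overlap, and it was 2.04-fold lower at 4 h and 1.59-fold lower at 0 h (adjusted p = 0.00231 and 0.0192). Nop2, a 28S rRNA methyltransferase, was lower by 0.99 at 4 h and by 0.55 at 0 h on the log2 scale. Mrto4, which holds the place of the stalk protein P0 (-0.91 and -0.64), and the nucleolar assembly proteins Nip7 (-0.72 and -0.50), Ebna1bp2 (-0.67 and -0.51) and Nop16 (-0.49 and -0.43) were lower at both times too.

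The PeBoW complex, which is needed to make 28S and 5.8S rRNA, was split by the calls. Pes1 (-0.57 at 4 h and -0.49 at 0 h) and Wdr12 (-0.57 and -0.47) were lower at both times, and the third partner Bop1 had -0.33 and -0.16 and was not called. Rrp1b (-0.77), the helicase Ddx18 (-0.63) and Noc3l (-0.49) were lower at 4 h alone by the call, and Brix1 (-0.39 at 4 h) was not called. For 4 of the 54 genes a second probe set was measured, and it was lower in the plus-titled arm in each case: -0.93 at 4 h and -0.68 at 0 h for Mrto4, -0.51 and -0.49 for Ddx18, -0.48 and -0.64 for Fbl, and -0.47 and -0.38 for Wdr12.

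At least 2-fold lower and called at 4 h were 7 genes: Nop56, Gnl3, Dkc1, Mybbp1a, Nhp2, Ddx21 and Grwd1. At 0 h there were 3, Dkc1, Gnl3 and Nhp2. Falls of that size were called for 60 genes in all at 4 h and for 40 at 0 h, or 0.301% and 0.201% of all genes.

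Dexamethasone itself gave 0 calls among the 54 genes in either arm. In the plus-titled arm, 0.281% of all genes were called lower and 0.823% higher after 4 h, and the smallest adjusted p among the 54 genes was 0.132. In the no-titled arm, 0.401% were called lower and 1.03% higher, and the smallest was 0.325. Averaged over both arms, 1.23% of all genes were called lower and 1.73% higher, and the 54 genes again gave 0 calls (smallest adjusted p = 0.176). At an unadjusted p under 0.05 there were 8 genes in the plus-titled arm, all with lower signals (all genes, 4.94% lower and 5.05% higher). There were 3 in the no-titled arm, all with higher signals (all genes, 4.3% lower and 4.79% higher), and 3 in the mean over both arms, all with lower signals (all genes, 6.35% lower and 6.02% higher).

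The small hormone differences leaned opposite ways in the 2 arms. In the plus-titled arm the 4 h minus 0 h difference had a median of -0.11 and was below 0 for 40 of 54 genes (74.1%, against 51.6% of all genes). In the no-titled arm the median was 0.09, and 41 of 54 genes were above 0 (75.9%, against 51.7% of all genes). Genes above 0 in the no-titled arm and below 0 in the plus-titled arm numbered 28 of 54, or 51.9%, against 23.1% of all genes. The medians moved with single arrays: that of the plus-titled arm was 0.01 without its first untreated array, -0.22 without its second untreated array and -0.02 without its second 4 h array, and that of the no-titled arm was 0.03 without its second untreated array.

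Utp15, a subunit of the SSU processome that also acts in rDNA transcription, had the most negative plus-titled response. Its signals were 7.05 and 6.97 at 4 h, against 7.56 and 7.37 at 0 h. The difference of -0.46 (95% interval -0.72 to -0.20) had an adjusted p of 0.132 and was not called. In the no-titled arm it had 7.64 and 7.59 at 4 h, against 7.76 and 7.57 at 0 h, a difference of -0.05. Tsr1 had the most positive no-titled response: 8.88 and 9.05 at 4 h, against 8.64 and 8.62 at 0 h, a difference of 0.33 (95% interval 0.08 to 0.58, adjusted p = 0.325). In the plus-titled arm its difference was -0.12.

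**Figure D4:**
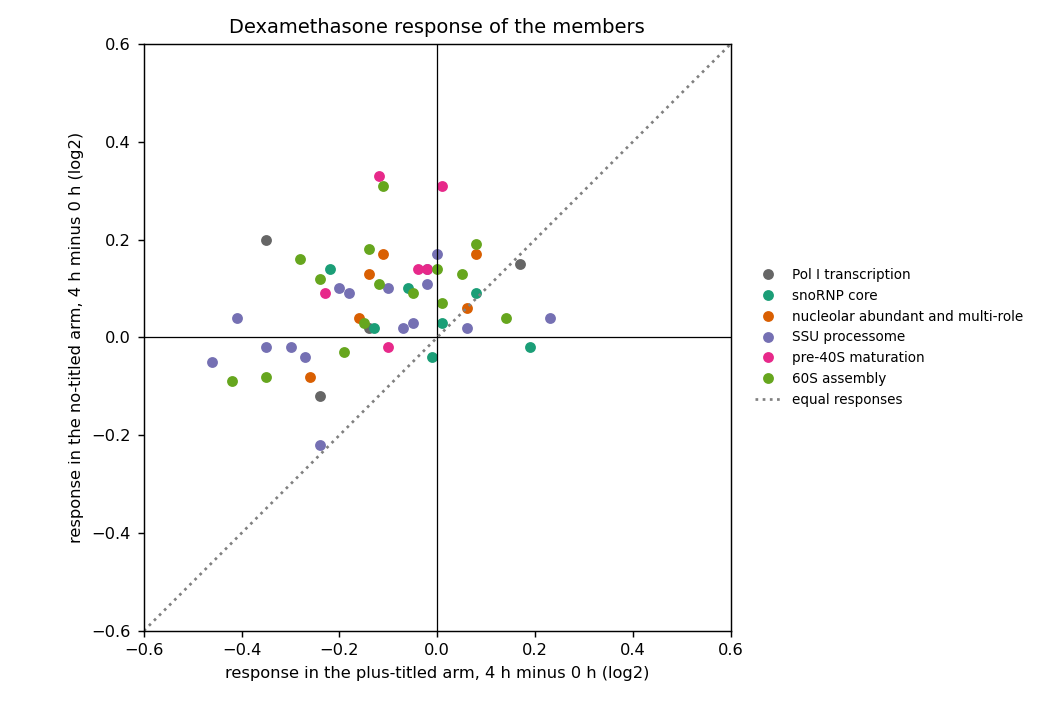
Dexamethasone response (4 h minus 0 h, log2) of each of the 54 genes in the plus-titled arm (horizontal) and in the no-titled arm (vertical), coloured by role; the dotted line marks equal responses. Most points, 48 of 54, lie above the line, none of them called, and 28 lie left of and above 0.

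The difference of the 2 responses, plus-titled minus no-titled, tests directly whether the arms differed more with hormone than without it. It was below 0 for 48 of 54 genes (88.9%, against 53.3% of all genes) with a median of -0.17, and with 1 array left out the median ran from -0.32 (without the second untreated plus-titled array) to -0.08 (without the first). In the full data 0 genes passed the test (smallest adjusted p = 0.902). In that contrast 0.00502% of all genes, a single gene, were called lower and 0 higher. At an unadjusted p under 0.05 there were 6 of the 54, all negative (all genes, 2.7% negative and 2.41% positive): Polr1b, Wdr75, Utp15, Tsr1, Nop2 and Rrp1b. The most negative, Polr1b at -0.56, had a 95% interval of -1.04 to -0.07 and an adjusted p of 0.953. The greater number of calls at 4 h than at 0 h is thus not shown to be a difference between the times for any single gene.

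The other gene lists of the same machinery had smaller shares of calls. Of 87 further ribosome biogenesis factors measured, 28 were lower at 4 h (32.2%) and 11 at 0 h (12.6%), with medians of -0.32 and -0.17, and 1, Gnl3l, was higher at 0 h. At 4 h the most negative called were Utp14a (-0.90 ± 0.14, adjusted p = 0.00336), an SSU processome protein, the 18S rRNA dimethylase Dimt1 (-0.80 ± 0.20) and Aatf (-0.78 ± 0.13). At 0 h they were the nucleolar protein Lyar (-0.77 ± 0.15, adjusted p = 0.00967), the 60S GTPase Gtpbp4 (-0.66) and Aatf (-0.64).

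The next list held 13 genes of the RNA exosome, the complex that trims and degrades precursor RNA, and of its cofactors. Of these, 6 were lower at 4 h (46.2%, all genes 4.32%) and 2 at 0 h (15.4%, all genes 3.18%). Exosc8 (-0.83 at 4 h, -0.68 at 0 h) and Exosc1 (-0.65 and -0.53) were lower at both times, and the nuclease Dis3 was lower at 4 h (-0.87). Of 16 further RNA polymerase I subunits and factors, 4 were lower at 4 h (25%) and 2 at 0 h (12.5%). With lists this short, the shares at 0 h say little. Taf1d, a subunit of the selectivity factor SL1, was lower by 1.25 ± 0.24 at 4 h and by 1.33 ± 0.24 at 0 h on the log2 scale (adjusted p = 0.00875 and 0.00678). Cd3eap (-0.66) and Polr1e (-0.61) were lower at 4 h, and Polr1d (-0.47) at 0 h.

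Ribosomal protein genes had small differences that all pointed the same way. Of the 55 measured (of 79), 3 were called lower at 4 h (5.45%, near the 4.32% of all genes). At 0 h, 4 were called lower (7.27%, all genes 3.18%). The medians were -0.21 at 4 h and -0.28 at 0 h, and all 55 were below 0 at both times. The called genes named were Rpsa (-0.50), Rpl30 (-0.48) and Rpl4 (-0.44) at 4 h, and Rpl12 (-0.84), Rps12 (-0.47) and Rpl4 (-0.43) at 0 h. Ribosomal protein genes have many processed copies in the genome that probes may share, so these values are uncertain. RNA polymerase III subunits did not share the pattern: 0 of 13 were called at 4 h and 1, Polr3e (-0.45), was lower at 0 h, with medians of -0.07 and 0.04.

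**Figure D5:**
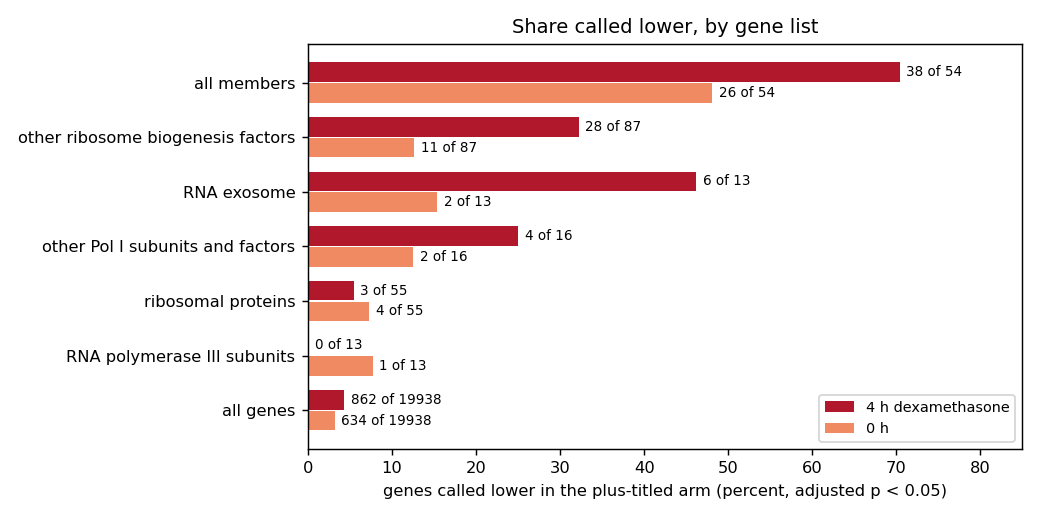
Percent of the measured genes of each list called lower in the plus-titled arm (adjusted p under 0.05) at 4 h of dexamethasone (dark) and at 0 h (light), with the counts beside the bars. The 54 genes described here stand at 70.4% and 48.1%, and all genes at 4.32% and 3.18%.

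Myc, whose protein is the activator named above, was lower in the plus-titled arm. Its signals were 7.52 and 7.47 in the plus-titled 4 h arrays, against 8.74 and 8.71 in the no-titled ones. At 0 h they were 7.52 and 7.23 in the plus-titled arm, against 8.85 and 8.79 in the no-titled arm, so the arms were well apart at both times. Myc was 2.35-fold lower at 4 h (-1.23 ± 0.12, adjusted p = 0.000328) and 2.72-fold lower at 0 h (-1.45 ± 0.12, adjusted p = 0.00014). Dexamethasone differences of Myc were 0.12 in the plus-titled arm and -0.10 in the no-titled arm, neither called. The part of Myc in the lower ribosome biogenesis signals was not tested.

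The labelled mammary cells had mesenchymal markers near the top of the signal range (Vim, Fn1 and Cdh2 between the percentiles 92.1 and 100), and luminal epithelial markers in its lower and middle parts (Krt8, Krt18, Krt19, Epcam and Cdh1 between 20.5 and 55.3). Of 4 basal markers, Krt14 was lower in the plus-titled arm (-1.41 at 4 h, -1.39 at 0 h) and Acta2 higher (1.45 and 1.66), and Krt5 and Trp63 were not called. The mean log2 signal of the 4 basal markers was 5.37 to 5.80 in the plus-titled 4 h arrays and 5.54 to 5.84 in the plus-titled 0 h arrays. In the no-titled arm it was 5.56 to 5.63 at 4 h and 5.54 to 5.69 at 0 h. None of the 3 mesenchymal and 5 luminal markers was called between the arms, but the mean of each list was lower in every plus-titled array than in every no-titled one. For the mesenchymal markers it was 10.84 to 10.89 in the plus-titled 4 h arrays, against 11.09 to 11.18 in the no-titled 4 h arrays, and 10.86 to 10.89 in the plus-titled 0 h arrays, against 11.13 to 11.19 in the no-titled 0 h arrays. For the luminal markers it was 4.87 to 5.02 in the plus-titled 4 h arrays, against 5.11 to 5.17 in the no-titled 4 h arrays, and 4.88 to 4.91 in the plus-titled 0 h arrays, against 5.06 to 5.10 in the no-titled 0 h arrays. None of the 4 leukocyte, 3 endothelial and 3 adipocyte markers was called between the arms. The part of the basal, mesenchymal and luminal markers in the ribosome biogenesis result was not tested.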

How the data were processed

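RNA from 8 samples was measured on Affymetrix arrays. The deposited values are log2 signals per probe set, made by the authors with RMA in Affymetrix Expression Console, per the submitters' processing notes. No versions are given in the sources used. RMA quantile-normalizes probe signals before they are summarised (the arrays' medians still differ slightly), which can hide a change common to most transcripts. Of 28888 probe sets, 21789 had 1 symbol in the annotation used, 1621 several and 5478 none. Of those with 1 symbol, 21698 took the RefSeq symbol of their gene number. No filter on signal was applied.

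The values were fitted with limma 3.58.1 (lmFit and eBayes, R 4.3.3) with 1 mean for each of 4 groups, 4 residual and 6.64 prior degrees of freedom, and 2-sided tests with Benjamini-Hochberg adjustment over 19938 genes. The script was checked on simulated data. The number of arrays limits the precision. All adjusted p-values are from this model, and SE is its standard error.

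The 54 genes, role groups and pathway lists were chosen with earlier results of these data known. In each role group, values by array are given for up to 3 called genes with the largest difference at 0 h (or that with the smallest p), and for the 3 genes with the smallest difference. From each pathway list, up to 3 called genes per comparison are named. Genes named for a hormone difference, Polr1b and Ncl were chosen after their values were seen.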

Additional observations from a re-analysis of the deposited data

How the results depend on the processing

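The direction of the median over the 54 genes held at both times in all alternatives run. Of the calls, 18 of 38 at 4 h (among them Nop56, Dkc1, Nhp2, Gnl3 and Mybbp1a) and 8 of 26 at 0 h were made in every alternative. With 1 array left out at a time, 19 to 43 genes were lower at 4 h and 8 to 27 at 0 h, a lone array being taken to vary like the other groups. A minimum of 1.5-fold left 33 at 4 h and 16 at 0 h. Other settings gave 37 to 45 at 4 h and 20 to 34 at 0 h (a variance trend with robust fitting, only the arrays compared, leaving out the dimmest 25% of genes, median centring, cyclic loess, and other ways of choosing the probe set). With the replicate number as a block, 40 were lower at 4 h and 33 at 0 h. The 8 genes called at 0 h in every alternative were Nop56, Dkc1, Nhp2, Gar1, Nolc1, Mybbp1a, Gnl3 and Ftsj3. The 0 h calls of the other genes, among them Nob1, Tsr1, Nat10 and Nop16, depended on the setting. Deviations of same-numbered arrays over all genes correlated with r from -0.019 to 0.133, above 0.1 in 2 of 6 pairs of groups, so pairing by number was not shown, although most of the 54 genes were higher in replicate 1 in all 4 groups. For dexamethasone in the plus-titled arm, 1 gene, Utp15, was called lower under the variance trend (adjusted p = 0.0494); all other settings gave 0 calls for hormone. Directions that turned were all of genes not called: Imp3 at 0 h (-0.05 under cyclic loess, -0.09 to 0.11 without 1 array), Noc4l (-0.18 to 0.01), Ddx10 (-0.31 to 0.12), Ltv1 (-0.54 to 0.06) and Bysl (-0.29 to 0.06) at 0 h, where the second untreated plus-titled array was left out for the positive values, and Rrn3 at 4 h (-0.12 to 0.04, positive without the second plus-titled 4 h array); the cause was not tested. With 2 arrays a group, small differences cannot be told from 0.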

Other observations

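Cd3eap, an RNA polymerase I subunit, was the only gene of the pathway lists called for dexamethasone. In the mean over both arms it was higher at 4 h than at 0 h by 0.46 ± 0.10 on the log2 scale (adjusted p = 0.0435). Its response was 0.35 in the plus-titled arm and 0.57 in the no-titled arm, neither called alone. The mean response was no longer called after median centring (adjusted p = 0.0621) or in 7 of the 8 fits that left out 1 array.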
